A study of Mus musculus with 9 samples.

Results

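The uroplakins are the membrane proteins that cover the apical face of the bladder lining. The members were chosen by gene name as the uroplakin genes Upk1a, Upk1b, Upk2, Upk3a and Upk3b. They are 5 of the 13064 genes tested and are read by 9 of the 45101 probe sets on the array. All 9 probe sets passed the filter on dim signals, so no member was left out. That filter asked for a signal no lower than the median of the array on 3 or more of the 9 arrays.

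Bladder tissue came from newborn FVB/N mice that carry the SMGA/EGFP transgene, built on smooth muscle gamma actin (Actg2), and all 3 groups share this genotype. The groups were detrusor (the smooth muscle coat), stroma (the connective tissue beneath the lining) and urothelium (the lining epithelium), each cut by laser from frozen sections 8 µm thick and profiled on 3 Affymetrix MOE430 arrays, 1 unpooled sample per array after 2 rounds of RNA amplification. The detrusor arrays hold 2 samples of postnatal day 1 and 1 of day 2, and the stroma and the urothelium each hold 1 sample of day 1 and 2 of day 2. The labels give no sex and tie no sample to an animal, so the p-values reflect no more than how far these samples lie apart, and part of that may be technical. Layers were compared with limma on log2(intensity + 39.31), with p-values adjusted by Benjamini-Hochberg over all 13064 genes, and a gene was called at an adjusted p under 0.05.

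Uroplakins pack into crystalline plaques, called the asymmetric unit membrane, on the umbrella cells at the surface of the urothelium. Upk1a and Upk1b are tetraspanins, proteins that cross the membrane several times. Upk2 and the Upk3 proteins cross it once, and Upk1a, Upk2 and Upk3a must join their partners before they can leave the endoplasmic reticulum, whereas Upk1b can leave it alone. Upk1a pairs with Upk2, and Upk1b pairs with Upk3a or with Upk3b. Upk3b is also known as a gene of the mesothelium, the thin outer covering of abdominal organs.

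Upstream windows from RefSeq in the mouse assembly GRCm38.p6 were at hand for 3 of the 5 members, and not for Upk1b and Upk2. The windows cover 250 bases before the gene's start site, written in the direction of the gene. They are shown because the members, these 3 among them, all moved in the same direction between the layers. Upk1a lies on the minus strand of chromosome 7, and its window is chr7:30612735-30612984. Upk3a is on the plus strand of chromosome 15 with the window chr15:85016891-85017140, and Upk3b is on the plus strand of chromosome 5 with the window chr5:136038246-136038495. Capitals mark exact matches, on either strand, to the motifs described after the sequences.
Upk1a: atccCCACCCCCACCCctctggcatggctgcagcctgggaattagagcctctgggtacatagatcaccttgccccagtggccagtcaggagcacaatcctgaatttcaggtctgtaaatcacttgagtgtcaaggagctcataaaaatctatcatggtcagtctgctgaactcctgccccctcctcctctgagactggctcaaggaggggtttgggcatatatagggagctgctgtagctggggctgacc
Upk3a: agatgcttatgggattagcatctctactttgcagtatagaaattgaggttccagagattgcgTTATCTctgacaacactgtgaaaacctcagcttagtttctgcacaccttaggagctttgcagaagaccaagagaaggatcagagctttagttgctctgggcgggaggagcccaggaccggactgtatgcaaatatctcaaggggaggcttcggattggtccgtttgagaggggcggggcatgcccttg
Upk3b: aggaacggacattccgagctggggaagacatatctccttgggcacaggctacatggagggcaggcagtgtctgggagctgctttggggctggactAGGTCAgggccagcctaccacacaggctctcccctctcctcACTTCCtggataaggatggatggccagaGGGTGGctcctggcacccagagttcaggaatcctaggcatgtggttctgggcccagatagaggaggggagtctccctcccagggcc

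The motifs searched were the TATA box TATAAA, the GATA sites AGATAA and TGATAA, the grainyhead-like site AACCGGTT, the forkhead site TGTTTAC, the KLF site CCACCC, the nuclear receptor site AGGTCA and the ETS core GGAAGT. The Upk1a window holds CCACCC at positions -246 and -240, counted from the start site, as 2 adjoining copies that do not overlap. The Upk3a window holds 1 match, AGATAA on the minus strand at -188, where the printed letters are its reverse complement. The Upk3b window holds AGGTCA at -155, GGAAGT on the minus strand at -114 and CCACCC on the minus strand at -86. Among the 32851 mouse windows of this length, 28.1% hold CCACCC, 19.7% GGAAGT, 14% AGGTCA and 9.99% AGATAA. The TATA box TATAAA (12.4% of windows), TGATAA (7.94%), TGTTTAC (3.17%) and AACCGGTT (0.116%) had no match in these 3 windows. The most frequent of these motifs, CCACCC, was the one that the Upk1a and Upk3b windows shared. No motif was found in all 3 windows.

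The layers differed in how cleanly they carried their defining markers. The 9 basal and intermediate urothelial markers summed to between 244425 and 361800 intensity units on the urothelium arrays and to between 4685 and 8262 on the detrusor arrays. In stroma the same sum was 121189, 22084 and 244765 on arrays 1, 2 and 3, and stroma 3 came closest to urothelium. On stroma 3, 8 of the 9 markers lay below their urothelium mean, and Krt8, a keratin named after its values were seen, stood at 134% of it. The 9 smooth muscle markers summed to 29824, 20642 and 315057 on urothelium 1, 2 and 3, against 350513 to 521168 in detrusor. The gene of the transgene, Actg2, a smooth muscle actin, stood at 82286 on urothelium 3, inside the detrusor range of 72260 to 109196, and at 1920 and 757 on the other urothelium arrays. The sum of the 9 fibroblast markers was highest in stroma (375168 to 563710, against 271180 to 340778 in detrusor), though not every single marker followed it. The comparisons with stroma are also given without stroma 3 for the members that it moved most, and Actg2 is given without urothelium 3. The part of these other layers' transcripts in the results was not tested. In captured tissue of this kind, fewer cells of a type and less RNA per cell cannot be told apart.

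All 5 uroplakins were higher in urothelium than in detrusor. Of the 13064 genes, 8.37% were called higher in urothelium in the same comparison. Sorted by the size of the difference on the log2 scale, Upk3a ranked 14 among those genes, Upk1b 55, Upk3b 60, Upk1a 171 and Upk2 465. The median difference of the 5 members was 6.26 log2 units, against a median of -0.01 over all genes. For each of the 5, every urothelium array lay above every detrusor array, a separation that 19.3% of all genes showed.

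**Figure D1:**
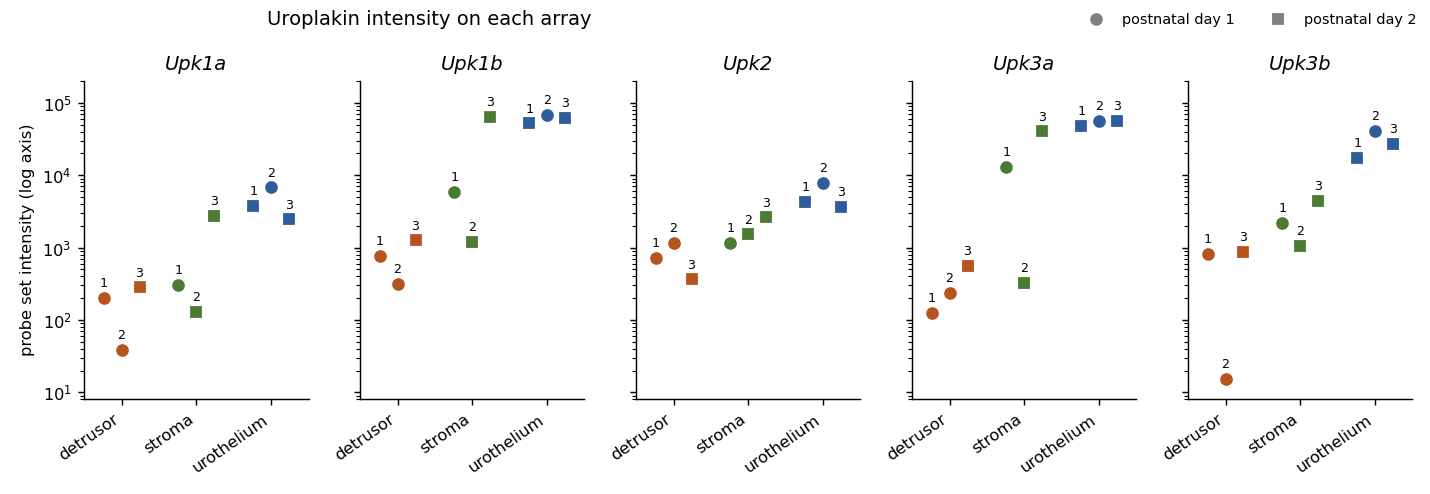
Deposited intensity (log axis) of the 5 uroplakins on each of the 9 arrays, grouped by layer. There is 1 point per array, with its shape giving the postnatal day and its label the replicate. All 3 urothelium points lie above all 3 detrusor points in every panel. The stroma points reach into the urothelium range for Upk1a and Upk1b only, and for Upk3b they lie clear of both other layers.

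The first tetraspanin, Upk1a, read 3791, 6777 and 2447 intensity units on urothelium 1, 2 and 3. On detrusor 1, 2 and 3 it read 201, 39.1 and 281. On stroma 1, 2 and 3 it read 304, 129 and 2746. The urothelium and detrusor values do not overlap, while stroma 3 lies above the lowest urothelium array and the other stroma arrays lie near or within the detrusor range. The difference between urothelium and detrusor was 4.47 ± 0.93 log2 units (SE, n = 3 per layer, limma adjusted p = 0.00841), or 22.1-fold on the scale with the pseudocount.

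The second tetraspanin, Upk1b, read 51918, 68910 and 61642 on urothelium 1, 2 and 3 with the probe set that stands for the gene, 1457065_at. Detrusor gave 777, 312 and 1254, and stroma gave 5850, 1182 and 64295. Stroma 3 thus lay inside the urothelium range, stroma 1 lay between the layers and stroma 2 lay within the detrusor range. Upk1b was 6.40 ± 1.09 log2 units higher in urothelium than in detrusor (SE, n = 3 per layer, limma adjusted p = 0.003329), or 84.2-fold.

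Upk2, the single-pass partner of Upk1a, had the smallest difference of the 5. It read 4268, 7735 and 3623 in urothelium, 724, 1163 and 363 in detrusor, and 1162, 1519 and 2615 in stroma. All 3 urothelium arrays lay above all 6 others, and stroma 1 was level with the highest detrusor array. The difference between urothelium and detrusor was 2.79 ± 0.49 log2 units (SE, n = 3 per layer, limma adjusted p = 0.003729), or 6.93-fold. Its detrusor arrays stood at 13.9%, 22.3% and 6.96% of the urothelium mean, whereas the other 4 members had detrusor values between 0.0537% and 6.48% of theirs.

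Upk3a, a partner of Upk1b, had the largest difference of the 5 as each gene was read here, although the Upk1b probe sets 1435831_at (7.75 log2 units) and 1455464_x_at (7.64) exceeded it. It read 47400, 56925 and 56245 in urothelium and 125, 235 and 564 in detrusor. Stroma 1, 2 and 3 read 13054, 327 and 40319. The urothelium values lay close together, with a coefficient of variation of 9.93%, and above every stroma array, whereas the stroma arrays spanned the gap between the other layers. The urothelium exceeded the detrusor by 7.47 ± 1.31 log2 units (SE, n = 3 per layer, limma adjusted p = 0.003729), or 178-fold. Here, as for every member, the SE pools the spread of all 3 layers, stroma included. Without stroma 2 it was 0.52 at the same difference.

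Upk3b, the other partner of Upk1b, read 17154, 40486 and 27287 in urothelium with 1454881_s_at, the probe set that stands for the gene. Detrusor gave 810, 15.2 and 873, and stroma gave 2169, 1056 and 4374. With this probe set its 3 layers did not overlap at all, in the order urothelium, stroma, detrusor. With the second, 1434237_at, stroma 2 (498) lay inside the detrusor range (211 to 707). Upk3b was 6.26 ± 0.95 log2 units higher in urothelium than in detrusor (SE, n = 3 per layer, limma adjusted p = 0.002026), or 76.7-fold. Detrusor 2 set much of that size: without it the difference was 4.92 log2 units (limma adjusted p = 0.002788).

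Upk1b was read by 4 probe sets and Upk3b by 2, and these are repeat readings of the same RNA. Fitted separately, 9 of 9 probe sets passed as higher in urothelium than in detrusor, by 2.79 to 7.75 log2 units, where 6.10% of the 22207 probe sets passing the filter were called. The 3 other Upk1b probe sets differed from 1457065_at on stroma 1. There 1435831_at read 19211, 1455464_x_at 18539 and 1439760_x_at 4274, which are 27.3%, 27.7% and 29.5% of their urothelium means, against 9.62% for 1457065_at. On stroma 3 the same 3 probe sets read 62.1%, 60.7% and 79.5% of their urothelium means, against 106% for 1457065_at. The second Upk3b probe set, 1434237_at, read 9850, 26649 and 17030 in urothelium, 591, 211 and 707 in detrusor, and 964, 498 and 2038 in stroma, and its urothelium arrays again lay above all others.

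**Figure D2:**
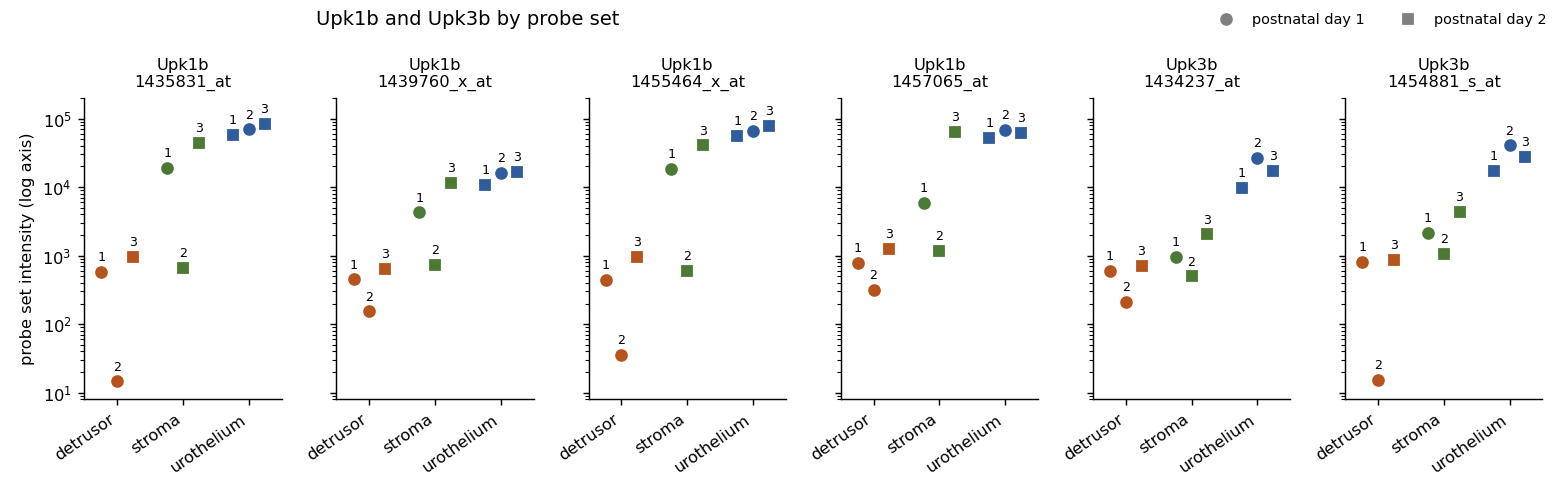
Deposited intensity (log axis) of each Upk1b and Upk3b probe set on the 9 arrays, coloured by layer. The 4 Upk1b probe sets separate urothelium from detrusor alike and differ in where stroma 1 and stroma 3 fall.

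Against stroma, the uroplakins were measured higher in urothelium by 1.54 to 3.60 log2 units, but 0 of 5 were called by limma, where 0.0612% of all genes were called higher in urothelium. At an unadjusted p under 0.05, all 5 were higher in urothelium, as were 8.27% of all genes. Upk3b had the smallest adjusted p, with a difference of 3.60 log2 units (95% interval 1.51 to 5.69, adjusted p = 0.08172). The intervals of the others were 0.84 to 4.93 for Upk1a (adjusted p = 0.1256), 0.56 to 5.37 for Upk1b (0.1718), 0.46 to 2.62 for Upk2 (0.1229) and 0.32 to 6.09 for Upk3a (0.2147). As each gene was read here, every urothelium array lay above every stroma array for Upk2, Upk3a and Upk3b. That is 3 of 5 members, against 9.77% of all genes. For Upk1b this depended on the probe set. The separation held for 6 of the 9 probe sets, among them 1435831_at and 1455464_x_at of Upk1b. Of the 9 probe sets, 1 was called in this comparison, the second Upk3b probe set 1434237_at (3.99 ± 0.59 log2 units, SE, limma adjusted p = 0.04257), where 0.0270% of probe sets were called. The 2 tetraspanins, Upk1a and Upk1b, were called once stroma 3 was left out, at 4.06 log2 units (adjusted p = 0.01551) and 4.50 log2 units (adjusted p = 0.01019). Upk3a was not called without stroma 3, at 4.61 log2 units (adjusted p = 0.06059). Over all 13064 genes, 327 were then called higher in urothelium, against 8 with every array in. Upk1a and Upk1b were also called without stroma 3 and urothelium 3 together, at 4.41 (adjusted p = 0.02196) and 4.48 (adjusted p = 0.02262). There 217 genes were called higher in urothelium. Without detrusor 2, Upk3b was called at the same 3.60 log2 units (adjusted p = 0.04719), as were 5 genes in all. Leaving out stroma 2 moved the differences the other way, to 1.22 log2 units for Upk3a (adjusted p = 0.2771), 1.64 for Upk1b (0.3198) and 2.04 for Upk1a (0.2404), and none of these was called.

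**Figure D3:**
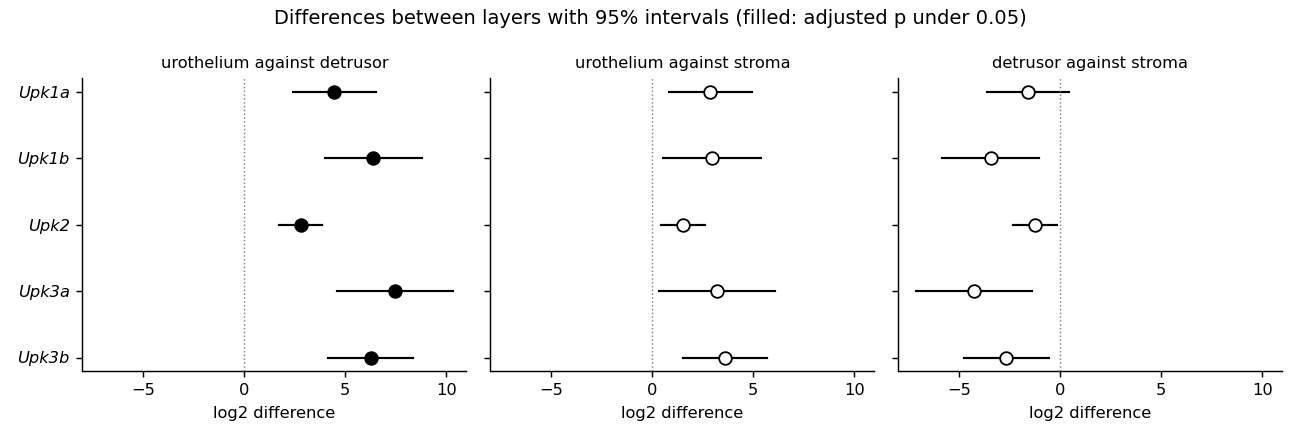
Difference in log2(intensity + 39.31) for each uroplakin in the 3 comparisons of layers, with 95% intervals from limma (3 arrays per layer). The intervals for urothelium against detrusor lie farthest from 0, and those involving stroma are of like width and lie nearer to it.

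Detrusor values were lower than stroma values for all 5 members, with detrusor minus stroma between -4.27 and -1.25 log2 units, and 0 of 5 were called by limma, where 2.72% of all genes were called lower in detrusor. At an unadjusted p under 0.05, 4 of 5 were lower in detrusor, as were 13.1% of all genes, and Upk1a did not pass. The intervals of detrusor minus stroma were -7.15 to -1.38 for Upk3a (adjusted p = 0.08473), -5.83 to -1.03 for Upk1b (0.09321), -4.75 to -0.57 for Upk3b (0.1275), -2.33 to -0.17 for Upk2 (0.1601) and -3.62 to 0.46 for Upk1a (0.3411). As each gene was read here, only Upk3b had every stroma array above every detrusor array, which is 1 of 5 members, where 15.3% of all genes showed this. That separation depended on the probe set. It held for 2 of the 9, 1454881_s_at of Upk3b and 1439760_x_at of Upk1b, and not for the second Upk3b probe set, 1434237_at. Without stroma 2, Upk1b was called at -4.76 log2 units (adjusted p = 0.01268) and Upk3a at -6.26 (adjusted p = 4.836e-04). Over all 13064 genes, 477 were then called lower in detrusor, against 355 with every array in. Without stroma 3 the differences shrank instead, to -1.90 log2 units for Upk1b (adjusted p = 0.1496), -2.86 for Upk3a (0.206) and -0.40 for Upk1a (0.7814), and none was called. The order of the layer means was therefore urothelium, stroma, detrusor for each member, and neighbours in that order did not differ past the threshold. These 3 comparisons share their arrays in pairs and are not independent of each other.

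The stroma arrays spread widely for some members. Over the 3 stroma arrays the standard deviation of the log2 values was 3.54 for Upk3a, 2.88 for Upk1b, 2.11 for Upk1a, 1.01 for Upk3b and 0.58 for Upk2, and in urothelium it was between 0.15 and 0.73. Stroma 3 stood at 106% of the urothelium mean for Upk1b, 75.3% for Upk3a, 63.3% for Upk1a, 50.2% for Upk2 and 15.5% for Upk3b. Stroma 1 stood at 24.4% for Upk3a, 22.3% for Upk2, 9.62% for Upk1b, 7.66% for Upk3b and 7.0% for Upk1a. Stroma 2 stood at 29.2% for Upk2 and at 0.611% to 3.73% for the other 4. The 9 basal and intermediate markers, read the same way, had medians of 34% on stroma 1, 2.90% on stroma 2 and 58.1% on stroma 3. The arrays thus fell in the same order on both lists, and Upk3b lay below the range of those 9 markers on stroma 3 (40.2% to 134%). On stroma 1, where that range was 8.77% to 76.1%, both Upk3b and Upk1a lay below it. Of the other umbrella cell genes, Krt20 (20.3%) and Adh7 (5.91%) were also below the range on stroma 3, and Psca, named after its values were seen, was below it on stroma 1, at 0.741%. What part urothelial material had in the stroma values was not tested.

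**Figure D4:**
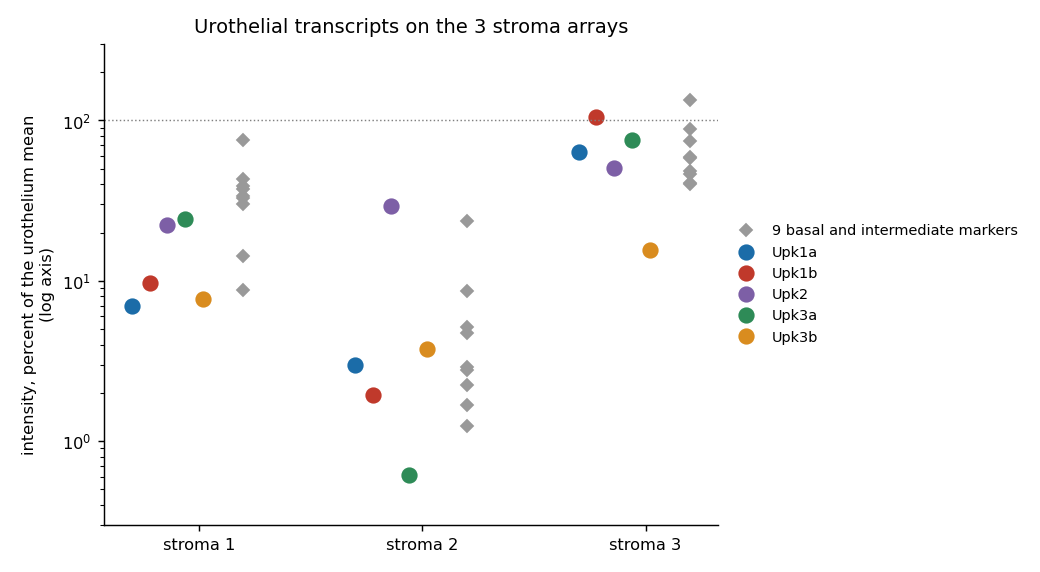
Intensity on each stroma array as a percentage of the urothelium mean (log axis) for the 5 uroplakins and the basal and intermediate urothelial markers. Stroma 3 lies highest and stroma 2 lowest for most genes. Upk3b stays at 15.5% on stroma 3, and Upk2 at 29.2% on stroma 2.

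Postnatal day made no called difference. With layer in the fit, day 2 minus day 1 ran from -0.49 log2 units for Upk2 to 0.53 for Upk1b. By limma 0 of 5 members were called, with adjusted p between 0.9129 and 0.9938, where 0.0153% of all genes were called in either direction, and 0 of 5 passed at an unadjusted p under 0.05, where 5.56% of all genes did. With 4 arrays of day 1 and 5 of day 2, this does not show that the days were alike.

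Whether pairs of uroplakins changed by unequal amounts between urothelium and detrusor was examined through the log2 ratio of each pair on the same array, which compares changes and not levels. Upk2 minus Upk3a moved furthest, by -4.68 log2 units. Upk1b minus Upk2 moved by 3.60, and Upk2 minus Upk3b by -3.47. For each of these 3 pairs the exact two-sided permutation p was 0.1, the smallest that 3 against 3 arrays allow, so the design cannot reach 0.05 and 0 of 10 pairs were called (adjusted p = 0.1429). Between the plaque partners, Upk1a minus Upk2 moved by 1.67 (exact permutation p = 0.2), Upk1b minus Upk3a by -1.08 (exact p = 0.1) and Upk1b minus Upk3b by 0.13 (exact p = 0.9). Each gene was read here only by the probe set that stands for it. Of the other Upk1b probe sets, 1435831_at (7.75 log2 units) and 1455464_x_at (7.64) differed by more than Upk3a (7.47). The Upk1b probe set 1439760_x_at (5.16) differed by less than Upk3b (6.26). The signs of these pairs with Upk1b thus depend on the probe set. Upk2 was in each of the 3 pairs that moved furthest, but with the pseudocount at the median intensity Upk1a minus Upk3a (-3.28) moved further than Upk2 minus Upk3b (-2.87).

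Genes that act with the uroplakins were read from lists. Of 15 genes of plaque partners and vesicle traffic, 7 were higher in urothelium than in detrusor past the threshold and 0 lower, with a median of 0.99 log2 units against -0.01 over all genes. Of all genes, 8.37% were called higher and 8.05% lower. Snx31, a sorting nexin that binds uroplakins on their way to degradation, was 6.61 ± 1.00 log2 units higher (SE, n = 3 per layer, limma adjusted p = 0.002). Mal, a raft protein of apical transport, was 5.95 ± 0.94 higher (adjusted p = 0.002507). Sytl2, a Rab27 effector that tethers vesicles, was 4.08 ± 0.45 higher (adjusted p = 5.909e-04) and was the 1 gene of the list called against stroma, at 2.81 (adjusted p = 0.04372). That second call was made under 7 of 19 alternatives, with adjusted p from 0.008479 to 0.1753. Of all genes, 0.0612% were called higher in urothelium than in stroma. None of the 15 was called between detrusor and stroma by limma, where 3.12% of all genes were called higher and 2.72% lower in detrusor.

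The other tetraspanins were split between the layers. Of 23 other tetraspanins tested, 4 were higher in urothelium and 4 lower past the threshold of the comparison with detrusor, with a median of 0.12 log2 units. Over all genes 8.37% were higher and 8.05% lower. Those higher were Tspan8 (7.80 ± 0.81, SE, limma adjusted p = 4.552e-04), Tspan13 (3.32 ± 0.52), Tspan6 (2.62 ± 0.37) and Tspan15. Those lower were Tspan2, Tspan4, Tspan9 and Tspan17, which like Tspan15 are named after their values were seen. Between detrusor and stroma, Tspan2 and Tspan9 were called higher in detrusor and Tspan8 lower. Of all genes, 3.12% were called higher and 2.72% lower in detrusor in that comparison. The Tspan8 call was made under all 19 alternatives, that of Tspan2 under 8 (adjusted p up to 0.1729) and that of Tspan9 under 4 (adjusted p up to 0.1339).

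Urothelial transcription factors were higher in urothelium as well. Of 13 tested, 12 passed as higher in urothelium than in detrusor, where 8.37% of all genes did. The median of the 13 was 4.74 log2 units, and Tfap2a was not called. Ehf, an ETS factor of epithelia, was 8.02 ± 0.75 log2 units higher. The grainyhead-like factors Grhl3 and Grhl2, which act in epithelial barriers, were 4.90 ± 0.58 and 4.74 ± 0.42 higher. Against stroma 0 of the 13 were called, where 0.0612% of all genes were called higher in urothelium. Between detrusor and stroma 7 were lower in detrusor, where 2.72% of all genes were.

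Of 6 other umbrella cell genes tested, 5 passed as higher in urothelium than in detrusor, where 8.37% of all genes did. The median of the 6 was 6.58 log2 units, and Adh7 was not called. Gsdmc2, a gasdermin, was 8.83 ± 1.15 log2 units higher, Ly6d 7.02 ± 1.00 and Krt20, the keratin of mature umbrella cells, 6.14 ± 0.70. All 9 basal and intermediate markers were called higher, with a median of 6.88 log2 units, among them Krt15 (8.65 ± 1.09), the adhesion protein Epcam (7.80 ± 0.71) and E-cadherin, Cdh1 (7.07 ± 0.81). Against stroma 0 members of either list were called, where 0.0612% of all genes were called higher in urothelium. Between detrusor and stroma, 4 of the 6 and 6 of the 9 were lower in detrusor, where 2.72% of all genes were. Genes of both lists thus read high in urothelium, and which epithelial cells they came from was not tested.

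For the other tissues a sample could hold, 7 of 9 smooth muscle, 4 of 9 fibroblast and 4 of 5 skeletal muscle markers were called lower in urothelium than in detrusor, where 8.05% of all genes were, and 0 of 5 endothelial and 0 of 5 leukocyte markers were called either way. Of the fibroblast markers, 4 of 9 were called lower in urothelium than in stroma, where 0.168% of all genes were. Between detrusor and stroma, 3 of 9 smooth muscle and 3 of 5 skeletal muscle markers were higher in detrusor, where 3.12% of all genes were. Actg2 itself was not called, at -4.08 ± 1.42 log2 units for urothelium minus detrusor (SE, limma adjusted p = 0.0762). It was called at -6.09 log2 units without urothelium 3 (adjusted p = 0.001302) and at -4.11 with array weights (adjusted p = 0.01774).

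Because Upk3b also belongs to the mesothelium, the other mesothelial genes were read beside it. Of 6 tested, 3 passed as higher in urothelium than in detrusor, where 8.37% of all genes did. These were Krt7, Krt19 and Msln, and the median over the 6 was 2.55 log2 units. Krt7 and Krt19 are also on the list of basal and intermediate urothelial markers. Mesothelin, Msln, read 1137, 1524 and 1164 in urothelium, 255, 137 and 190 in detrusor, and 304, 234 and 1525 in stroma, and its call was lost without detrusor 2, detrusor 3 or urothelium 2 in turn (limma adjusted p = 0.06366, 0.06172 and 0.06567). Wt1, a mesothelial transcription factor named after its values were seen, was highest on stroma 2 at 5881 and lowest on detrusor 3 at 6.66, with 1868, 40.7 and 926 in urothelium. Bnc1, named likewise, was also highest on stroma 2, at 2773. Gpm6a, the remaining gene tested, also named after its values were seen, was highest on urothelium 1, at 3129, and read 814 on stroma 2. These genes thus did not share 1 order of arrays. Lrrn4 and Muc16 did not pass the filter.

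RefSeq places Upk3bl, an Upk3b-like gene, next to Upk3b on chromosome 5, with 0 genes starting between them. Upk3bl is no member and was named after its values were seen. It read 1109, 2643 and 1533 in urothelium, 60.7, 32.8 and 81.0 in detrusor, and 545, 197 and 994 in stroma. As with the Upk3b probe set 1454881_s_at, its 3 layers did not overlap. Its difference between urothelium and detrusor was 4.15 ± 0.58 log2 units (SE, n = 3 per layer, limma adjusted p = 0.001563). It was called lower in detrusor than in stroma, at -2.45 log2 units (adjusted p = 0.03507), a call made under 9 of 19 alternatives (adjusted p from 0.01093 to 0.1297), and was not called against stroma in urothelium (1.69, adjusted p = 0.1487).

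Likeness of pattern was measured as Pearson's r of log2 values over the 9 arrays, which share their layers, so any gene of the lining correlates with the uroplakins. Among the uroplakins r ran from 0.762 (Upk2 with Upk3b) to 0.970 (Upk1b with Upk3a), and the 4 pairs with Upk2 were the lowest, at 0.762 to 0.824. The genes most like Upk3a were Ivl (0.998), Sprr1a (0.994), Fat2 (0.992), Krt18 (0.992) and Snx31 (0.991). Ivl and Sprr1a encode precursors of the cornified envelope of squamous cells. Those most like Upk1b were Il17re (0.991), Fmo5 (0.984), Plet1 (0.983), Ly6d (0.983) and Snx31 (0.983). Snx31 was thus among the 5 nearest genes of both Upk1b and Upk3a.

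The genes most like Upk1a were Stard10 (0.986), Sc5d (0.985), Fuca2 (0.984), Il17re (0.980) and Pigr (0.974), the last of which carries antibodies across epithelia. The genes most like Upk2 were Plce1 (0.984), Reep6 (0.975), Arhgef18 (0.974), Diaph1 (0.972) and Extl1 (0.968). The genes most like Upk3b were Mboat1 (0.991), Mfsd4a (0.989), Frk (0.989), Gldc (0.985) and H2-Bl (0.980). To the mean of the 5 members, Cldn23, Lrrc8e, Cntnap2, Cldn7, Fxyd3, Esrp2, Liph, Paqr5, Ugt2b34 and Tmprss11a came closest (0.995 to 0.987), of which Cldn23 and Cldn7 are claudins of tight junctions. These lists moved with the measure: of the 5 nearest genes, Spearman's rho kept 1 for Upk1a, 0 for Upk1b, 1 for Upk2, 0 for Upk3a and 1 for Upk3b. Without stroma 3 and urothelium 3, Pearson's r kept 3, 0, 2, 3 and 3 of them in the same order of members.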

How the data were processed

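The deposited table holds 1 linear intensity per probe set and array, which the authors computed in the Affymetrix program GCOS (submitters' processing notes). Which version, algorithm and scaling target were used is not given in the sources used here. Each array's mean after trimming 2% of probe sets at each end was 1500, so the arrays had been scaled alike before deposit, and array medians ran from 133.3 to 388.5. Without detection calls in the table, a dim probe set cannot be read as off. The number of arrays limits the precision.

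Of 45101 probe sets, 34945 carried a single symbol in GEO's platform annotation, 932 carried several, 9160 were unnamed and 64 were controls. Gene identifiers of 34754 matched the RefSeq table of GRCm38.p6, which changed 0 symbols. The analysis used log2(intensity + 39.31), with a pseudocount at the 20th percentile of the table, so folds understate the change of low genes. Each gene was read by its brightest passing probe set on average (22207 probe sets, 13064 genes).

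All 9 arrays entered 1 limma 3.58.1 fit in R 4.3.3 (functions lmFit and eBayes, mean-variance trend on, layer as the only term, day tested with layer as a covariate). The fit was tested on data simulated with the same spread in every layer, so that test does not cover layers of unequal spread. Named genes were all members, Actg2, the 3 genes of each list with the smallest adjusted p for urothelium against detrusor, the 5 nearest genes of each member and the 10 nearest to their mean, and others are marked where they appear. Of the smooth muscle, fibroblast, endothelial, leukocyte and skeletal muscle lists, no gene but Actg2 is named. The members and lists were chosen with earlier results of these data known, and 19 alternatives were run.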

Additional observations from a re-analysis of the deposited data

How the results depend on the processing

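The 5 calls between urothelium and detrusor held under all 19 alternatives, with differences of 3.43 to 4.87 log2 units for Upk1a (largest limma adjusted p = 0.03963), 5.88 to 6.82 for Upk1b, 2.38 to 3.16 for Upk2, 6.71 to 7.97 for Upk3a and 4.92 to 6.96 for Upk3b. Against stroma, the count of members called higher in urothelium was 0, and it became 1 with the pseudocount at the median intensity (Upk3b, 3.47, adjusted p = 0.03642), 1 with every probe set tested, 2 without stroma 3 and urothelium 3 together, and 0 to 2 with single arrays left out. Over all genes, the count called higher in urothelium than in stroma went from 8 to 163 with that pseudocount. It was 327 without stroma 3 and 217 without stroma 3 and urothelium 3. Between detrusor and stroma the count of members called became 2 with array weights (Upk1b, -3.55, adjusted p = 0.0489, and Upk3a, -4.65, adjusted p = 0.03524) and 0 to 2 with single arrays left out. With array weights, 403 of all genes were called lower in detrusor, against 355 in the main fit. The difference between days changed sign without a call: leaving out stroma 3 and urothelium 3 gave -0.068 log2 units for Upk1a and -0.29 for Upk1b, array weights gave 0.33 for Upk3a, and leaving out single arrays gave -0.25 to 1.11 for Upk1a, -0.26 to 1.30 for Upk1b, -0.95 to 0.94 for Upk3a and -0.46 to 1.04 for Upk3b. The unequal change of Upk1b minus Upk3b, 0.13, was -0.23 with the pseudocount at the 5th percentile. The count over all genes called between urothelium and stroma was 30 and ran from 0 (no mean-variance trend) to 528 (without stroma 3). Between detrusor and stroma it was 763 and ran from 105 (without detrusor 3) to 851, and between urothelium and detrusor 2145, from 1172 (without detrusor 3) to 3785 (array weights). Centring each array on its median moved the median of all genes from -0.12 to 0.31 for urothelium minus stroma and from -0.16 to 0.25 for detrusor minus stroma, and moved the calls from 8 higher and 22 lower to 192 and 31, and from 408 and 355 to 589 and 144. No member changed direction between layers under any alternative. Of 20 other named genes, 2 changed call between urothelium and detrusor (Actg2 and Msln). No paired analysis was possible because the columns carry no replicate numbers and the labels tie no sample to an animal.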
